A study of Mus musculus with 9 samples.

Results

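The annexins are a family of calcium-dependent proteins that bind acidic phospholipids on the inner face of cell membranes. The 9 genes described here, Anxa1, Anxa2, Anxa3, Anxa4, Anxa5, Anxa6, Anxa7, Anxa8 and Anxa11, were chosen by name, and every probe annotated with one of these symbols was taken. They are 9 of the 19057 genes named on the array and hold 20 probes. RNA from 3 mouse cell lines used as models of the extra-embryonic endoderm, a tissue that contributes to the yolk sac, was hybridized to 9 Illumina bead arrays, 3 for each line. The END2 line comes from P19 cells, an embryonal carcinoma, and was grown in DMEM/F12 medium. PYS2 cells came from a tumor of strain 129 mice, and XEN cells (labelled xen10) from blastocysts of the ICR strain, and both were grown in high glucose DMEM. The study, on endoderm that can induce heart tissue, asked what these lines share and where they differ. Each line is a single line from a separate strain or tumor, so that line, strain and origin cannot be told apart, nor can medium and line where END2 cells are compared. The labels do not say whether replicates were grown as separate cultures, so each p-value reflects only the spread among these arrays, which can be technical.

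Annexins carry a conserved core of repeats that bind calcium and lipid, and an N-terminal tail that differs between members and binds partners such as the S100 proteins. Through these they link membranes to the actin cytoskeleton, to each other during vesicle traffic, and to sites of membrane damage that are being sealed. Anxa2 with its S100a10 partner also binds tissue plasminogen activator at the cell surface, a protease made by parietal endoderm.

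The upstream sequence of the annexin genes is shown because several members followed the same order across the lines. The RefSeq annotation of GRCm38.p6 gave promoter entries for 7 of the 9 genes, and Anxa3 and Anxa6 had no entry. The 250 bases before the annotated start are shown for Anxa1, Anxa2 and Anxa5, whose level was highest in END2 cells and lowest or undetected in PYS2 cells, and for the upstream start of Anxa4, whose level was lowest in XEN cells. The entry of Anxa8, also highest in END2 cells and undetected in PYS2 cells, is not shown. Nor are those of Anxa7, Anxa11 and the second start of Anxa4. Letters in capitals mark matches, on either strand, to one of a set of promoter motifs. The TATA box was searched as TATAAA and the box of the NF-Y factor as CCAAT. The GC box was searched as GGGCGG. The AP-1 motif was searched as TGANTCA and the motif of TEAD factors as GGAATG, and in the sequences shown no match overlapped another.
Anxa1, chr19:20390672-20390921, minus strand: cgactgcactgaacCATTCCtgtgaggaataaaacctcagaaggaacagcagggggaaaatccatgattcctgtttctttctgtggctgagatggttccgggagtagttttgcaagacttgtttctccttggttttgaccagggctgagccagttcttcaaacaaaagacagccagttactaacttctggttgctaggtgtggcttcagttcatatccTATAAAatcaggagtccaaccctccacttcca
Anxa2, chr9:69453433-69453682, plus strand: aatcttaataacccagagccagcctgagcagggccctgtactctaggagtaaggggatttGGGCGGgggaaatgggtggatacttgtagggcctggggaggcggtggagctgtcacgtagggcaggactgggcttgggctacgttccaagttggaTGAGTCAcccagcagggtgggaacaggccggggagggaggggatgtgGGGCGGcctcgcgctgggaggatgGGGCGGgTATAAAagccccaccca
Anxa5, chr3:36475888-36476137, minus strand: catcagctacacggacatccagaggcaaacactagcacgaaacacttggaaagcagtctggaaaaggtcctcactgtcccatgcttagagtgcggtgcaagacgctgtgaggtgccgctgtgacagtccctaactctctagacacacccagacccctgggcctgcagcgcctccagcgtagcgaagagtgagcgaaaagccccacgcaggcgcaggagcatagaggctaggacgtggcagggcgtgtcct
Anxa4, chr6:86793585-86793834, minus strand: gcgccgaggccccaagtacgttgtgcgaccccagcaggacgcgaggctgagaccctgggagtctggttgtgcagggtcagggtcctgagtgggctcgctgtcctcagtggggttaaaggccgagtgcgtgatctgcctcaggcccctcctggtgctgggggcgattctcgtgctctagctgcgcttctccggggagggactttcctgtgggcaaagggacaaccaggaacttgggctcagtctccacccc
The Anxa1 sequence held a TATAAA whose first base lay 32 bases before the start and a GGAATG on the opposite strand at 236 bases. The Anxa2 sequence held a TATAAA at 17 bases, 3 GC boxes at 24, 48 and 190 bases, and an AP-1 motif at 95 bases. No listed motif lay in the Anxa5 or Anxa4 sequences shown, nor in those of Anxa8 and the second Anxa4 start, which are not shown. The GC content was 46.0% with 2 CpG for Anxa1, 62.4% with 9 CpG for Anxa2, 58.8% with 13 CpG for Anxa5 and 64.8% with 13 CpG for Anxa4, beside medians of 52.4% and 6 CpG over 32851 promoters of the same length. Of those promoters 12.4% held TATAAA, 33.8% CCAAT, 32.7% GGGCGG, 6.75% TGANTCA and 12.6% GGAATG, so that the matches are a description of these sequences only.

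On the arrays, a probe was taken as detected at a detection p-value under 0.01, and a gene as present in a line when at least 1 probe was detected on 2 or more of the 3 arrays. By this rule END2 cells had 8 of the 9 annexins, PYS2 cells 5 and XEN cells 7 (88.9%, 55.6% and 77.8%), where 44.2%, 41.5% and 41.5% of all named genes were present. Anxa7 was the member not present in END2 cells. Anxa1, Anxa3, Anxa7 and Anxa8 were not present in PYS2 cells, and Anxa1 and Anxa8 were not present in XEN cells. Of the 20 probes, 6 were detected on no array and 13 were present in at least 1 line and thus tested, with at least 1 for each of the 9 genes. Anxa1 and Anxa8 entered the test only through END2 cells and Anxa7 only through XEN cells, the lines in which they were present. Signals below are scanner intensities on a linear scale, in the order of replicates 1, 2 and 3. Log2 levels are those values after background correction and quantile normalization (neqc), and the lines were compared in 1 limma model with Benjamini-Hochberg adjustment over 16299 probes at an adjusted p under 0.05. A gene is represented by its tested probe with the highest mean level. Levels differ between probes of different sequence and are compared only between lines.

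Replicates 1 and 2 of END2 were 35.0 apart in Euclidean distance over all tested log2 levels, and replicate 3 was 72.1 and 78.5 from them. The median signal of XEN replicate 2 was 43.5, beside 21.3 to 30.9 on the other 8 arrays, and its scanner signals of Anxa2, Anxa3, Anxa4, Anxa5, Anxa6 and Anxa11 were the highest of the XEN arrays.

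Among the 9 annexins, 7 lay higher in END2 cells relative to PYS2 cells and 0 lay lower, and 2 did not pass the test. Over the 9354 genes tested 26.4% were higher and 28.8% were lower in this comparison. The median log2 difference was 2.59 for the annexins and -0.03 for all tested genes. Against XEN cells, 7 annexins were higher and 1 was lower in END2 cells and 1 did not pass, where 27.5% of all tested genes were higher and 26.7% lower, with medians of 1.22 and -0.02. In PYS2 against XEN cells 1 annexin was higher, 6 were lower and 2 did not pass, where 21.2% of all tested genes were higher and 18.4% lower, with medians of -0.87 and 0.02. Members that were tested only through the line where they are high had to differ, and the counts include them. Among the annexins present in both lines of a comparison, 4 of 5 were higher and 0 lower in END2 against PYS2, 5 of 6 were higher and 0 lower in END2 against XEN, and 1 of 5 was higher and 3 were lower in PYS2 against XEN, a count chosen after seeing the data. The share among all genes present in both lines was not computed, so these counts have no matching background. These comparisons share arrays, and the directions within a gene are not independent of each other. Without normalization between arrays the share of all genes called higher and lower was 20.1% and 12.8% in END2 against PYS2 and 19.7% and 12.6% in END2 against XEN, and the median of all genes moved to 0.16 and 0.13. In PYS2 against XEN the shares were 7.98% and 8.1%, with a median of -0.02. In that setting 6 annexins were higher and 0 lower in END2 against PYS2, 5 higher and 0 lower in END2 against XEN, and 1 higher and 4 lower in PYS2 against XEN. Without END2 replicate 3 the annexin counts in END2 cells were 7 higher and 0 lower against PYS2, and 7 higher and 1 lower against XEN. Of all tested genes 27.3% were then higher and 30.1% lower against PYS2, and 28.6% and 29% against XEN. Without XEN replicate 2 the annexin counts were 6 and 0, and 6 and 1, beside 25.9% and 28.3%, and 24.7% and 24.6%, of all tested genes. In these bulk cultures fewer expressing cells and less RNA per cell cannot be told apart.

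The lines also differed in markers of cell type. Each marker was read on 1 probe, the one with the highest mean signal, so presence and detection here refer to that probe. All 6 mesenchymal markers were present in END2 cells and 1 of 6 in PYS2 and in XEN cells, with summed signals of 2705.4 to 3403.3 in END2, 209.1 to 284.8 in PYS2 and 181.6 to 330.8 in XEN cells. Col1a1, Col1a2, Col3a1, Prrx1 and Thy1 were detected on no PYS2 or XEN array. Of 8 markers of extra-embryonic endoderm END2 cells had 5, PYS2 cells 8 and XEN cells 8 present, with Sox7, Sox17 and Hnf4a detected on no END2 array, and summed signals of 6229.8 to 9459 in END2 cells, 25618 to 31355 in PYS2 cells and 20884 to 42243 in XEN cells. The 5 in END2 cells include Gata4, Pdgfra and Foxa2, which the study did not find in END2 cells by qRT-PCR. It reported Foxa2 by qRT-PCR in PYS2 cells only. For Gata4 the study also found no protein in END2 cells by immunocytochemistry. It proposed that a Gata4 probe with high array signal in END2 cells may bind a non-specific transcript or a splice variant. Of 4 pluripotency markers, Nanog was present in END2 cells, which are labelled as an embryonal carcinoma line, and Pou5f1, Sox2 and Zfp42 were detected on no END2 array. The other 2 lines had 0 of 4 present. Of 4 trophoblast markers 1, 2 and 1 were present in END2, PYS2 and XEN cells. The part of these differences in the annexin levels was not tested.

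**Figure D1:**
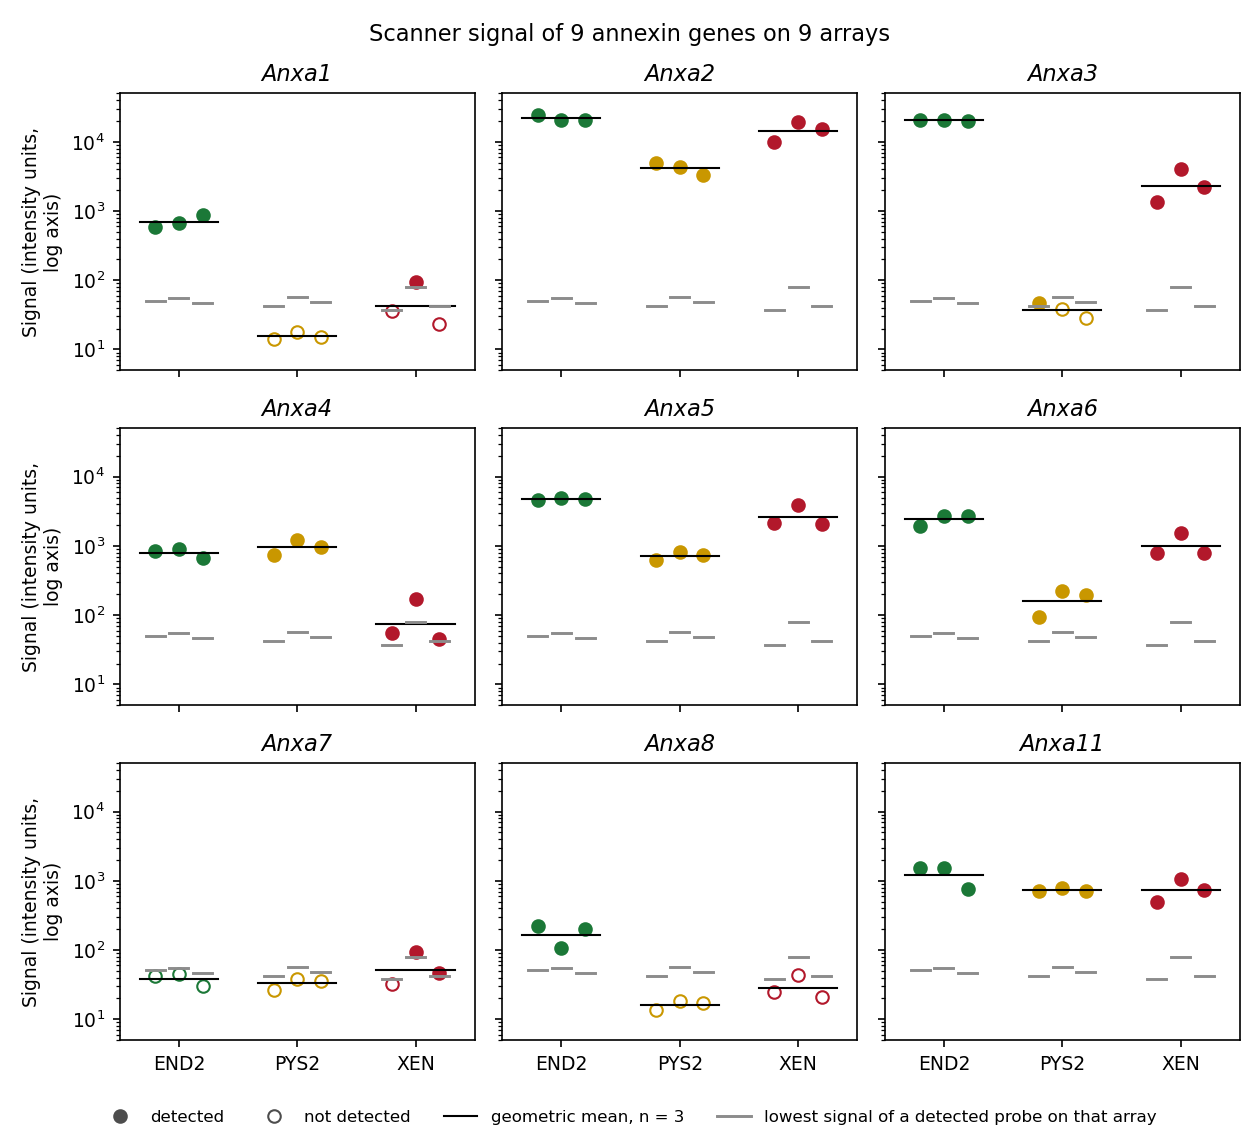
Scanner signal (intensity units, log axis) of the representative probe of each of the 9 annexin genes on the END2, PYS2 and XEN arrays. Filled points are detected and open points are not, black lines are geometric means of 3 arrays and grey lines mark the lowest detected signal of that array, between 37.6 and 80.5. The PYS2 points lie below the END2 points for Anxa1, Anxa2, Anxa3, Anxa5, Anxa6 and Anxa8, and the XEN points of Anxa4 lie below those of both other lines.

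Anxa2, which joins S100a10 in a complex that binds actin and membranes, was detected on every array. Its signal was 24131, 21028.5 and 20889.6 in END2, 4929.5, 4327 and 3326 in PYS2, and 9959, 19075 and 15199 in XEN cells. All PYS2 arrays lay below all arrays of the other lines, and the END2 arrays lay above the XEN arrays. Anxa2 was 4.81-fold above PYS2 in END2 cells (log2 difference 2.27 ± 0.22 SE, adjusted p = 3.99e-06, limma) and 3.27-fold below XEN in PYS2 cells (log2 difference -1.71 ± 0.22, adjusted p = 9.44e-05). END2 and XEN cells differed by 0.56 (95% interval 0.08 to 1.03), which did not pass (adjusted p = 0.0502). It passed without PYS2 replicate 1, at 0.54 with an adjusted p of 0.0316. The dimmer Anxa2 probe gave 166, 155 and 85.7 in END2 cells and was not detected in PYS2 cells, with 35.7, 146 and 52.4 in XEN cells, of which replicate 1 was not detected. For that probe END2 was higher than PYS2 cells by at least 2.36-fold (adjusted p = 0.000155) and higher than XEN cells by 1.80-fold (log2 difference 0.85 ± 0.29 SE, adjusted p = 0.0267). The highest signal of any probe on an array was 28286.5 to 35037.9, and the files flag no saturation.

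Anxa3, another calcium-dependent lipid-binding member, was high in END2 and XEN cells and was not present in PYS2 cells. Its signal was 20778.5, 20601 and 19858 in END2, 46.9, 38.4 and 28.5 in PYS2, and 1340.2, 4024 and 2218 in XEN cells. The END2 arrays varied little, the XEN arrays lay well below them, and only replicate 1 of PYS2 was detected. The fitted log2 difference of END2 from PYS2 cells was 9.13 ± 0.27 SE (adjusted p = 2.6e-10, limma). With the undetected PYS2 arrays set to their lowest detected signal, the END2 level was above PYS2 by at least 402-fold. It was 8.65-fold above XEN in END2 cells (3.11 ± 0.27, adjusted p = 1.78e-06) and, on the same basis, below XEN by at least 46.5-fold in PYS2 cells (-6.02 ± 0.27, adjusted p = 2.47e-08). On the authors' normalized values the log2 difference was 7.12 for END2 minus PYS2 and -3.83 for PYS2 minus XEN, and both passed the test. Both are smaller in size than the "at least" folds above, which are 8.65 and 5.54 in log2. A second Anxa3 probe gave 16746, 15833 and 13648 in END2, 42.3, 29.7 and 27.7 in PYS2, where no array detected it, and 874, 2416 and 1397 in XEN cells. By that probe Anxa3 was above PYS2 by at least 325-fold in END2 cells (adjusted p = 2e-10) and below XEN by at least 30.8-fold in PYS2 cells (adjusted p = 2.82e-08). For an "at least" fold, the undetected level on an array was replaced by the lowest detected signal there where that was higher. Such a fold holds only for the neqc levels and is no lower bound under other processing.

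Anxa1 and Anxa8 were detected in END2 cells on every array. Both entered the test only through END2 cells, so they had to lie higher there, whatever the p-value. Anxa1, an anti-inflammatory member that binds formyl peptide receptors when it is secreted, had signals of 581, 679 and 869.7 in END2, 14, 18.1 and 15.4 in PYS2, and 35.8, 93.5 and 23 in XEN cells. It was detected on no PYS2 array and on only replicate 2 of XEN. It was above PYS2 by at least 13.5-fold in END2 cells (adjusted p = 6.75e-08, limma) and above XEN by at least 13.2-fold, with the 2 undetected XEN arrays set to their lowest detected signal (log2 difference 4.08 ± 0.30 SE, adjusted p = 4.23e-07). Between PYS2 and XEN cells the log2 difference was -0.87 ± 0.30 (adjusted p = 0.0399), near the lowest detected level, and it gives no bound on the fold. That call was lost when any PYS2 array, END2 replicate 2, or XEN replicate 1 or 2 was left out, with adjusted p up to 0.168. Anxa8, a member found in stratified epithelia and on late endosomes, had signals of 220.3, 106 and 198 in END2, 13.6, 18.4 and 17.3 in PYS2, and 25, 43.9 and 20.9 in XEN cells. None of the PYS2 or XEN arrays detected it. It was above PYS2 by at least 3.02-fold in END2 cells (adjusted p = 2.08e-05) and above XEN by at least 3.12-fold (adjusted p = 5.08e-05). A second Anxa8 probe was detected only on END2 replicate 3, at a signal of 56, and was not tested. On the authors' normalized values, the log2 differences of END2 from PYS2 and XEN cells were 2.43 and 2.15 for Anxa1, and 1.00 and 0.89 for Anxa8, all past the test. They too are smaller than the "at least" folds, which are 3.76 and 3.72 in log2 for Anxa1, and 1.60 and 1.64 for Anxa8.

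Anxa5 and Anxa6 were detected on all 9 arrays and followed the same order. Anxa5, which binds exposed phosphatidylserine and limits coagulation on membranes, had signals of 4539, 4992 and 4797 in END2, 623, 830.1 and 742 in PYS2, and 2168, 3854 and 2054 in XEN cells. The groups did not overlap. It was 6.01-fold above PYS2 in END2 cells (log2 difference 2.59 ± 0.15 SE, adjusted p = 4.61e-08, limma) and 1.82-fold above XEN (0.86 ± 0.15, adjusted p = 0.000502), and 3.30-fold below XEN in PYS2 cells (-1.72 ± 0.15, adjusted p = 4.55e-06). Without normalization between arrays, the difference of END2 from XEN cells was 0.89 and did not pass (adjusted p = 0.0567). Anxa6, whose core of repeats is duplicated and which acts in endosomal traffic and cholesterol handling, had signals of 1919, 2698.5 and 2724 in END2, 94.7, 223 and 192 in PYS2, and 797, 1546 and 797 in XEN cells. The END2 arrays were again the highest and the PYS2 arrays the lowest. Anxa6 was 14.0-fold above PYS2 in END2 cells (3.80 ± 0.24, adjusted p = 9.85e-08) and 2.33-fold above XEN (1.22 ± 0.24, adjusted p = 0.00124). It was 6.01-fold below XEN in PYS2 cells (-2.59 ± 0.24, adjusted p = 7.95e-06). On the authors' normalized values the log2 difference was 3.03 for END2 minus PYS2 and -1.89 for PYS2 minus XEN. The other 2 Anxa6 probes were detected on no array.

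Anxa4, a membrane-aggregating member of secretory epithelia, had another order. Its signal was 842, 905 and 681 in END2, 749.5, 1229 and 953 in PYS2, and 55.2, 173 and 45 in XEN cells. All arrays detected it, and the XEN arrays lay below all others. It was 10.2-fold above XEN in END2 cells (log2 difference 3.35 ± 0.22 SE, adjusted p = 1.64e-07, limma) and 14.1-fold above XEN in PYS2 cells (3.81 ± 0.22, adjusted p = 1.51e-07). In the comparison of PYS2 with XEN cells, 43 of the 9354 tested genes had a larger difference. Between END2 and PYS2 cells the difference was -0.46 (95% interval -0.95 to 0.02) and did not pass (adjusted p = 0.0978). It passed without XEN replicate 3, at -0.46 with an adjusted p of 0.0450. A second Anxa4 probe gave 272, 373 and 406 in END2, 367, 572 and 306 in PYS2, and 138, 381 and 166 in XEN cells. On this probe the END2 and XEN signals overlapped, and the log2 difference of 0.53 (95% interval -0.04 to 1.10) did not pass (adjusted p = 0.112), while PYS2 cells were 1.99-fold higher than XEN cells (0.99 ± 0.26, adjusted p = 0.0114). Both probes were lowest on average in XEN cells, with unequal differences. On the authors' normalized values the brighter probe gave log2 differences of 2.04 for END2 minus XEN and 2.45 for PYS2 minus XEN. The remaining Anxa4 probe was detected on no array.

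**Figure D2:**
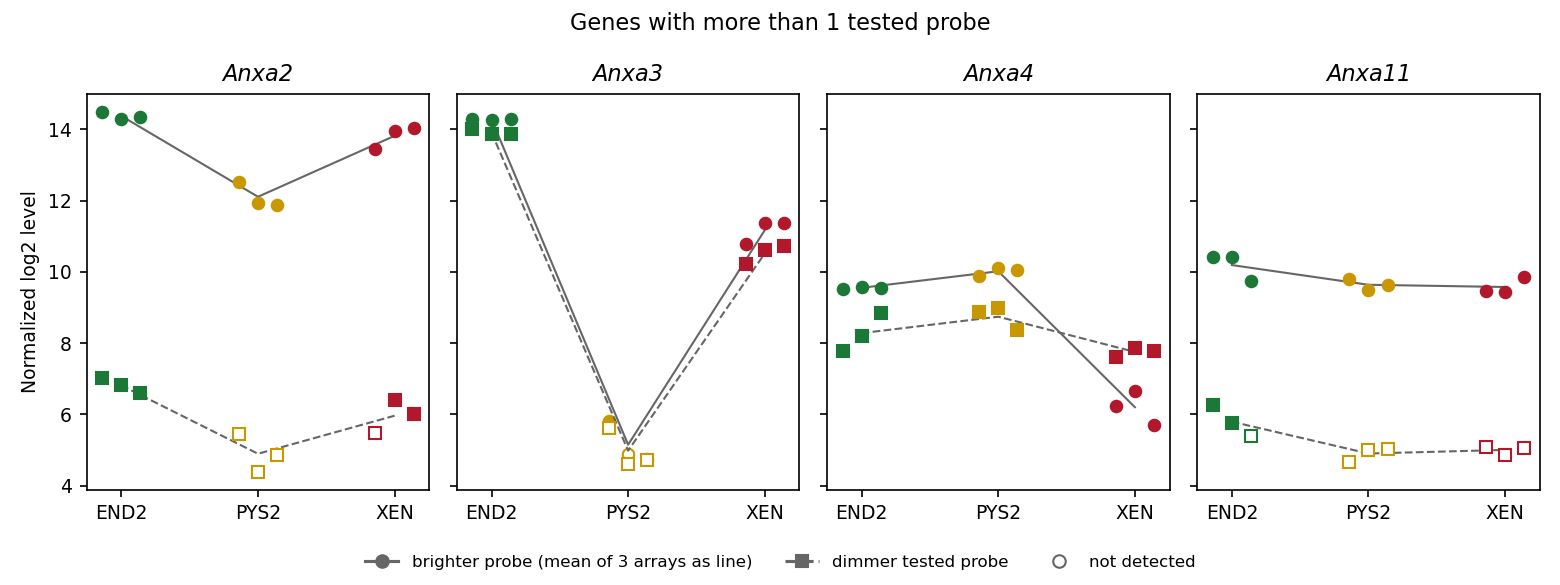
Normalized log2 level of the brighter (circles, solid line) and dimmer (squares, dashed line) tested probe of the 4 annexin genes with more than 1, in END2, PYS2 and XEN cells. Open symbols are not detected and lines join means of 3 arrays. The Anxa2 and Anxa3 probes ran in parallel, while the brighter Anxa4 probe dropped further in XEN cells than the dimmer one.

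Anxa11 and Anxa7 have long N-terminal tails, and on their representative probes the log2 differences between lines lay between -0.67 and 0.62. Anxa11, which binds S100a6 and tethers RNA granules to lysosomes in neurons, had signals of 1517, 1543 and 771 in END2, 706, 799 and 711 in PYS2, and 499.7, 1063 and 729.9 in XEN cells. END2 replicates 1 and 2 were high, while END2 replicate 3 lay within the range of the other lines. The log2 differences of 0.55 ± 0.22 from PYS2 cells (adjusted p = 0.0494, limma) and 0.62 ± 0.22 from XEN cells (adjusted p = 0.0322) passed, although the ranges overlapped. The call against PYS2 cells was lost when any array other than END2 replicate 3 was left out (adjusted p 0.0510 to 0.169), and the call against XEN cells without END2 replicate 1 or 2 or XEN replicate 1 or 2 (adjusted p 0.0995 to 0.121). A dimmer Anxa11 probe was detected on END2 replicates 1 and 2 and on no PYS2 or XEN array. By that probe END2 cells were at least 1.17-fold higher than PYS2 (adjusted p = 0.00485) and exceeded XEN cells by at least 1.21-fold (adjusted p = 0.00975). The dimmer probe entered the test only through END2 cells, so it had to lie higher there and adds no support to the calls above. PYS2 and XEN cells differed by 0.06 (95% interval -0.41 to 0.54) on the brighter probe. Anxa7, which promotes membrane fusion and binds sorcin, was detected only on XEN replicates 2 and 3, at signals of 95.1 and 46, with 32.6 on replicate 1. Its signals were 42.1, 45.4 and 30.2 in END2 and 26.8, 37.8 and 36 in PYS2 cells, all undetected. The Anxa7 probe entered the test only through XEN cells, so it had to lie lower in END2 and PYS2 cells. The probe was lower in END2 than in XEN cells by at least 1.19-fold (adjusted p = 0.0078) and lower in PYS2 than in XEN cells by at least 1.01-fold (adjusted p = 0.0108). Both calls were lost on the authors' normalized values (adjusted p = 0.0687 and 0.0835) and without normalization between arrays (adjusted p = 0.337 and 0.277). The other 2 Anxa7 probes were detected on no array.

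**Figure D3:**
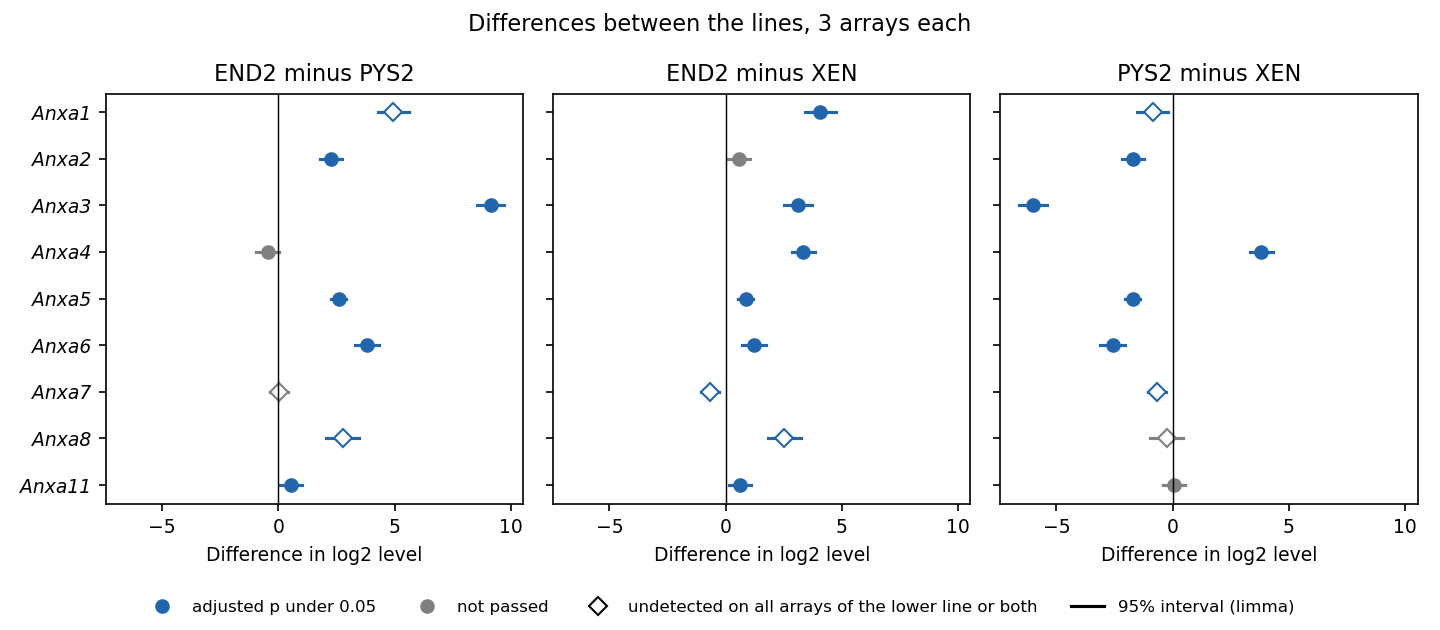
Difference in log2 level between the lines (x axis) of the representative probe of each annexin gene, for END2 minus PYS2, END2 minus XEN and PYS2 minus XEN, with 95% limma intervals over 3 arrays a line. Blue marks an adjusted p under 0.05, grey marks genes that did not pass, and diamonds mark genes undetected on all arrays of the lower line or of both, where the plotted difference is no measured fold. Anxa3 was detected on 1 of 3 PYS2 arrays and Anxa1 on 1 of 3 XEN arrays. Differences ran from -0.46 to 9.13 in END2 minus PYS2, and only Anxa4 passed as higher in PYS2 relative to XEN cells.

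Among all 9354 tested genes, ranks are given for annexins present in both lines of a comparison. In END2 against PYS2 cells 230 genes had a larger difference than Anxa6, 463 a larger one than Anxa5, 565 a larger one than Anxa2 and 2429 a larger one than Anxa11. For Anxa4, whose difference was negative, 6500 genes had a larger one. In END2 against XEN cells 240 genes had a larger difference than Anxa4, 282 a larger one than Anxa3 and 1204 a larger one than Anxa6. For Anxa5, Anxa11 and Anxa2 the numbers were 1780, 2348 and 2509. In PYS2 against XEN cells 159 genes had a more negative difference than Anxa6, 363 than Anxa5 and 370 than Anxa2. In the same comparison 43 genes had a larger difference than Anxa4 and 4356 a larger one than Anxa11.

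**Figure D4:**
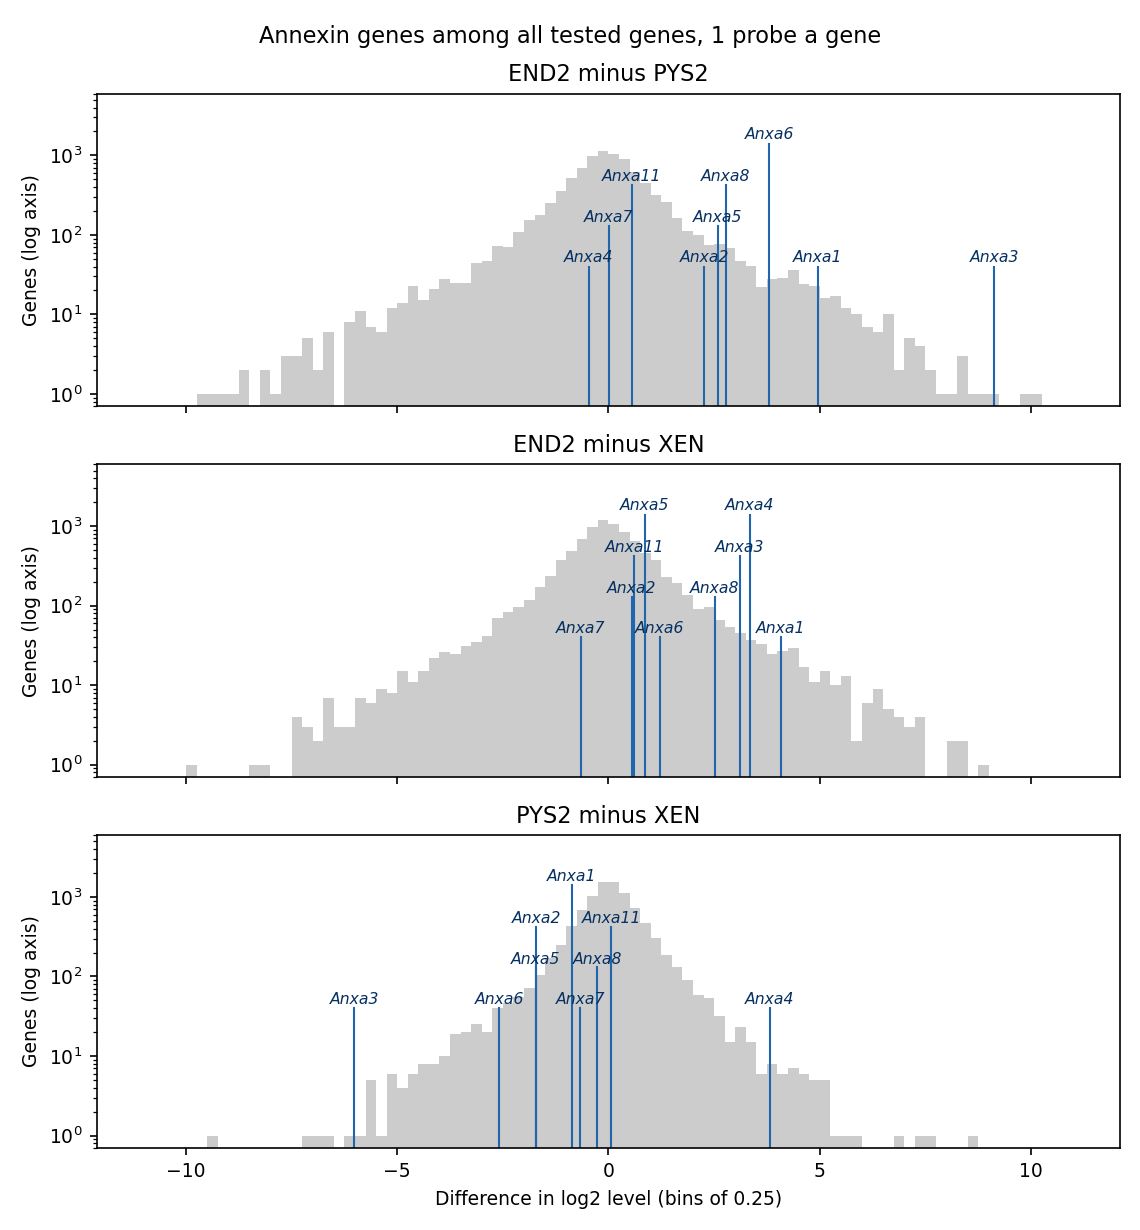
Number of tested genes (log axis) by difference in log2 level in bins of 0.25, for END2 minus PYS2, END2 minus XEN and PYS2 minus XEN, with the 9 annexins as blue lines whose heights only separate the labels. For Anxa1, Anxa7 and Anxa8, and for Anxa3 against PYS2, the fitted value rests on arrays that did not detect the probe in at least 1 line. Anxa6 lies at 3.80 in the first panel and at -2.59 in the last, where Anxa4 lies at 3.81.

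The remaining annexins and the partners of the family were taken as lists. For listed genes outside the annexins, detection refers to the representative probe only. Anxa9, Anxa10 and Anxa13 were detected on no array. Of 11 binding partners, 10 were on the array and 6 were tested. In END2 against PYS2 cells 5 of these were higher and 1 was lower (26.4% and 28.8% of all tested genes). Against XEN cells, END2 cells had 2 higher and 1 lower, with 3 not past the test (27.5% and 26.7% of all tested genes). PYS2 cells had 1 higher and 5 lower than XEN cells (21.2% and 18.4% of all tested genes). Their median log2 differences were 1.96, 0.31 and -2.02. S100a11, the partner of Anxa1, averaged a log2 level of 14.54 ± 0.127 in END2 cells, 4.54 ± 0.113 in PYS2 cells, where no array detected it, and 13.80 ± 0.204 in XEN cells (SD, n = 3 each). It was above PYS2 by at least 500.1-fold in END2 cells (adjusted p = 1.11e-11, limma) and below XEN by at least 299.7-fold in PYS2 cells (adjusted p = 5.31e-11). S100a10, the partner of Anxa2, had log2 levels of 10.61 ± 0.420, 8.02 ± 0.695 and 10.41 ± 0.187 in END2, PYS2 and XEN cells. It was 6.04-fold above PYS2 in END2 cells (adjusted p = 3.11e-05) and 5.23-fold below XEN in PYS2 cells (adjusted p = 0.00013). The END2 and XEN levels of S100a10 differed by 0.21 (95% interval -0.49 to 0.90). Ahnak, a giant scaffold bound by the Anxa2 complex, was 7.86-fold above PYS2 in END2 cells and 5.92-fold below XEN in PYS2 cells. Sri, which encodes sorcin, had a log2 difference of 1.32 ± 0.19 between END2 and PYS2 cells. S100a6, a partner of Anxa11, had another order. It was 2.15-fold above PYS2 and 6.47-fold above XEN in END2 cells, and 3.02-fold above XEN in PYS2 cells. Plat, the tissue plasminogen activator, was 1.58-fold below PYS2 in END2 cells (log2 difference -0.66 ± 0.23 SE, adjusted p = 0.0286) and 3.51-fold below XEN in END2 cells (adjusted p = 4.26e-05).

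Genes of plasma membrane repair were called in both directions, while only a few copines, another group of calcium-dependent lipid-binding proteins, were tested. Of 12 repair genes 11 were tested. In END2 against PYS2 cells 3 were higher, 4 lower and 4 did not pass, near the 26.4% and 28.8% of all tested genes. In END2 against XEN cells 4 were higher, 6 lower and 1 did not pass, beside 27.5% and 26.7% of all tested genes. In PYS2 against XEN cells 1 was higher, 3 lower and 7 did not pass, beside 21.2% and 18.4%. Ehd2, a membrane-shaping ATPase of caveolae, was above PYS2 by at least 3.29-fold in END2 cells (adjusted p = 2.58e-06, limma). Dysf, which encodes dysferlin, exceeded its PYS2 level by at least 1.41-fold in END2 cells (adjusted p = 0.000237), and neither gene was detected on a PYS2 or XEN array. Capn1, a calcium-activated protease, was 3.06-fold below PYS2 in END2 cells (adjusted p = 0.000161) and 5.16-fold below XEN in END2 cells (adjusted p = 7.59e-06). Ehd1, an endosomal recycling ATPase, was 2.53-fold and 4.33-fold lower in END2 than in PYS2 and XEN cells. Of 9 copines 2 were tested. Cpne8 was above PYS2 by at least 7.70-fold in END2 cells and above XEN by at least 7.96-fold, and was detected on no array of those lines. Ehd2, Dysf and Cpne8 entered the test only through END2 cells, so they had to lie higher there.

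In order of level, Anxa2, Anxa3, Anxa5 and Anxa6 ran from END2 through XEN to PYS2 cells, each step past the test except END2 against XEN for Anxa2. In Anxa4 the order ran from PYS2 through END2 to XEN cells, and the first step did not pass. The step from END2 to XEN cells passed on the brighter Anxa4 probe and not on the dimmer one. PYS2 and XEN cells were not told apart for Anxa8, undetected in both, nor for Anxa11.

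Over the 9 arrays, which fall into 3 lines and share their normalization, log2 levels of Anxa3 and Anxa5 had a Pearson correlation of 0.9917, Anxa5 and Anxa6 of 0.9907, Anxa2 and Anxa3 of 0.9825, and Anxa1 and Anxa8 of 0.9586, while Anxa4 and Anxa7 had -0.8965. The genes with the pattern most like each annexin were sought by the same measure among all tested genes. They were Frmd7 (0.9948) and Inf2 (0.9944) for Anxa1, Aph1b (0.9892) and Efna5 (0.9866) for Anxa2, and Acta2 (0.9969) and Fbln2 (0.9958) for Anxa3. For Anxa4 they were Prcp (0.9864) and Cldn12 (0.9849), for Anxa5 Selenon (0.9976) and Dmrta2 (0.9968), and for Anxa6 Amotl2 (0.9968) and Selenon (0.9918). For Anxa8 they were Mapk4 (0.9915) and Tmem43 (0.9902), for Anxa7 Ahsg (0.9629) and Qpct (0.9625), and for Anxa11 5730409K12Rik (0.9659) and Pnliprp1 (0.9589). These values describe likeness across 3 lines and carry no test. The representative probe of Anxa1 was detected on 4 of the 9 arrays, that of Anxa8 on 3 and that of Anxa7 on 2. Their correlations and nearest genes therefore rest largely on undetected levels, and each entered the test only through 1 line.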

How the data were processed

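Expression was measured on 9 Illumina mouse bead arrays, 3 each of END2, PYS2 and XEN cells, grouped by their labels. The authors' scanner table, read in BeadStudio, gives each probe a fluorescence signal as an intensity on a linear scale, with the number and spread of its beads. The same deposited table gives a detection score as a fraction from 0 to 1, which was subtracted from 1 to give the detection p-value. A second table of the authors' normalized values, made with lumi (version not given), is deposited on a log2 scale and was used as an alternative. Its columns had the ranks of their own arrays' signals and medians of 7.0344 to 7.0357, so it is neither centred nor ratios. The sources used here do not give the slide of an array or whether BeadStudio subtracted a background. A further 24 columns, of 3 arrays with no sample here, were not used. Each annexin signal averaged 23 to 73 beads, with a standard error over beads of 2.26% to 11.7% where the probe was detected. Arrays have no sequencing depth, and their number limits the precision.

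Signals were corrected and quantile normalized with limma 3.58.1 (neqc, offset 16) under R 4.3.3. Probes were named from the platform annotation, in which 34885 of 45281 probes have 1 symbol, 18 have several and were not named, and 10378 have none, and 34807 of the symbols matched RefSeq. Probes present in at least 1 line were tested (16299 probes, 9354 genes) in 1 limma model over 9 arrays, without replicate number as a block and with Benjamini-Hochberg adjustment. The model was tested on simulated data. All 9 annexins and their probes are named, and up to 5 genes with the largest difference among those called in each list, besides the 2 genes most correlated with each annexin. The marker genes are named by list. The members and lists were chosen with earlier results of these data known. Each array was left out in turn, and the fit was repeated with a stricter threshold, with array weights, with the replicate block, with the mean of a gene's probes, with only the lines compared, with cyclic loess, with other rules for dim probes, without normalization between arrays, without background correction and on the authors' normalized values. A count over genes present in both lines compared was added after seeing the data. Promoter sequences came from RefSeq (GRCm38.p6) and carry their own coordinates, while the sources used here do not name the build behind the array's annotation.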

Additional observations from a re-analysis of the deposited data

How the results depend on the processing

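The differences of single annexins were computed under 564 combinations of gene, comparison and alternative, of which 511 kept the side of the threshold, 40 lost the call, 13 gained one and 0 reversed a call. Among the 511, the sign changed in 7, of differences near 0 that did not pass (4 of Anxa7 in END2 against PYS2 and 3 of Anxa11 in PYS2 against XEN cells). Annexins lower in END2 than in PYS2 cells numbered 0, and 1 (Anxa4) on the authors' normalized values, without background correction, with only the lines compared and with array weights. Counted over genes present in both lines, a setting chosen after seeing the data, annexins higher in END2 than in PYS2 cells numbered 4 in place of 7, annexins lower in END2 than in XEN cells 0 in place of 1, and annexins lower in PYS2 than in XEN cells 3 in place of 6, since fewer genes are counted. Annexins lower in END2 than in XEN cells numbered 1 (Anxa7), and 0 on the authors' normalized values, without normalization between arrays and when a probe had to be detected on all 3 arrays of a line, where Anxa7 is no longer tested. For the other settings the cause was not tested. With each array left out in turn, annexins higher numbered 6 to 7 in END2 against PYS2, 6 to 8 in END2 against XEN and 1 in PYS2 against XEN cells, and annexins lower numbered 0 to 1, 1 and 5 to 6. Calls of Anxa11 in END2 against PYS2 cells changed under 14 of 21 alternatives, those of Anxa1 in PYS2 against XEN cells under 11, those of Anxa11 in END2 against XEN cells under 9, and those of Anxa2 in END2 against XEN cells under 8.

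Same-numbered arrays of different lines had correlations of their deviations from the line means over 0.1 in 4 of 9 pairs, and 5 of 9 arrays correlated best with an array of their own number, and the labels do not say what a number marks, so the arrays were not treated as paired. With the replicate block, annexins higher numbered 6, 6 and 1 and annexins lower 0, 1 and 5 in the 3 comparisons. Of all tested genes 26.2%, 27.1% and 20.5% were then higher and 28.3%, 26.4% and 18.1% lower. The calls not past the threshold with the block were those of Anxa11 against PYS2 (adjusted p = 0.0715) and against XEN (adjusted p = 0.05003), and of Anxa1 in PYS2 against XEN (adjusted p = 0.0656). No slide is given, so a slide block was not run. Detection limits the low end: signals under 37.6 to 80.5, depending on the array, were not told from background, which leaves Anxa7, Anxa8 in PYS2 and XEN cells, and Anxa1 and Anxa3 in PYS2 cells at or near an upper bound.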
